A study of Homo sapiens with 25 samples.

Results

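TERT, the gene of telomerase's catalytic subunit, and the 6 genes of the shelterin complex were followed in Jurkat cells, an established human T-cell leukaemia line, grown with less histidine. The 7 genes were taken by name from a table of 36755 genes: TERT was chosen by its normalized counts on day 3, which nearly vanished at 0% against 100% histidine, and TERF1, TERF2, TERF2IP, TINF2, POT1 and ACD were added for contrast. All 7 were in the table and all 7 passed the filter on low values that 22994 genes passed. RNA was sequenced from 25 libraries in 9 groups. On day 3 there were 3 libraries each in medium with 0%, 12.5%, 25% and 50% histidine and 2 libraries, numbered 1 and 3, in 100% histidine medium. On day 6 there were 2 libraries at 12.5% and 3 each at 25%, 50% and 100%. A 0% group on day 6 was not analysed here, and the labels name no histidine concentration behind the percentages and no other agent. They do not say whether the numbered libraries of a group came from separate cultures, so p-values cover variation among these libraries of 1 cell line, part or all of which may be technical.

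Telomerase is a reverse transcriptase that adds TTAGGG repeats to chromosome ends, copying them from its own RNA, TERC. TERT is the subunit whose expression is lost in most adult somatic cells and present in stem cells, activated lymphocytes and most cancers, and the transcription factor MYC is known to bind E-boxes in its promoter. Shelterin coats the repeats and hides chromosome ends from DNA repair. TERF1 (TRF1) and TERF2 (TRF2) bind the double-stranded repeats, TERF2IP (RAP1) rides on TRF2, TINF2 (TIN2) bridges both to ACD (TPP1), and ACD recruits telomerase and holds POT1, which binds the single-stranded end. In T cells, telomerase activity is known to rise on activation.

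TERT (ENSG00000164362.19) lies on the minus strand of chromosome 5 at 1253147 to 1295069 in GRCh38, with 16 exons in its longest coding transcript. TERF2 (69355561 to 69408571, minus strand), TERF2IP (75647786 to 75761872, plus strand) and ACD (67657512 to 67660815, minus strand) lie on chromosome 16. TINF2 lies on chromosome 14 (24239643 to 24242674, minus strand) and POT1 on chromosome 7 (124822386 to 124929983, minus strand). The TERF2 annotation overlaps the coding gene AC026464.3 by 746 bases on the same strand, where strand does not separate reads. The TERF2IP annotation overlaps KARS on the opposite strand by 858 bases, that of ACD overlaps CARMIL2 by 58 bases, and that of POT1 overlaps its antisense gene POT1-AS1 by 111 bases. Also on the opposite strand, TERF2IP overlaps the coding genes AC025287.4 (16783 bases), CPHXL (12219) and DUXB (7531), and TERF1 overlaps the antisense gene AC022893.3 (437). The libraries were strand-specific, but the strand setting used in quantification is not given in the sources used here, so reads in these overlaps may be shared. The TERF1 pseudogenes TERF1P6 and TERF1P7 stayed at or below 12.8 normalized counts in every library.

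Promoter sequence was available for 5 of the 7 genes (RefSeq, GRCh38.p14). The 250 bases before the start of TERT, whose transcript was lower under restriction, and of TERF2IP, whose transcript was higher, are shown for comparison. Capitals mark matches on either strand to the E-box CACGTG, which reads the same on both strands, and to the GC-box, GGGCGG or its complement CCGCCC.
TERT, chr5:1295069-1295318, minus strand: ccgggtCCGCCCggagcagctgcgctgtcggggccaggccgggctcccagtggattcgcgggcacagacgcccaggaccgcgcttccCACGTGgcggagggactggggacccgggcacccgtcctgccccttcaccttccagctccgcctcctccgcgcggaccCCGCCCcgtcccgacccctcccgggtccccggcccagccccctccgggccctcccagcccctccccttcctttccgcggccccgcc
TERF2IP, chr16:75647523-75647772, plus strand: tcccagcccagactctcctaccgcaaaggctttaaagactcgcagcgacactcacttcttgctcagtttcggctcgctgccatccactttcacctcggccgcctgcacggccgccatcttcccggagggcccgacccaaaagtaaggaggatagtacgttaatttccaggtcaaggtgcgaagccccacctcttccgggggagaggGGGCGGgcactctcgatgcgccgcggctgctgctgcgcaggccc
The TERT window holds 1 E-box, 163 to 158 bases before the start, and 2 GC-boxes, and is 78.8% G or C. The TERF2IP window holds no E-box and 1 GC-box, 44 to 39 bases before the start, and is 62.8% G or C. No E-box was found in the windows of POT1, TINF2 or ACD either. Among 35116 human promoter windows of the same length, 6.34% hold an E-box and 42.6% a GC-box. A match describes the letters only and is not evidence that a factor is bound.

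Values are the authors' normalized counts, with totals of 18.44 M to 21.38 M per library and between 17445 and 19624 genes at 10 or more. All 7 T-lineage markers were present in every group, with summed levels of 40505 to 78682, and CD3E ran from 15441 to 30628. Transcripts of other cell types were also present. The library at 25% histidine, replicate 2, on day 6 stood apart, with MYH7, a heart muscle myosin, at 18207. The 4 erythroid markers summed to 191 to 5029, with the haemoglobin genes high in all 3 day 3 libraries at 50%, and the 4 fibroblast and matrix markers to 1583 to 12094. The haemoglobin gene HBA2 was also high on day 3 at 12.5% (replicate 3, 1689) and at 0% (replicates 1 and 2, 1649 and 1991). On day 6 it was high at 50% (replicates 2 and 3, 1676 and 1384) and at 25% (replicate 1, 2176). B-cell markers summed to 193 to 656, nearly all of it CD79A, with MS4A1 at 3.01 at most. Each call at 25% on day 6 is given with and without the library that stood apart.

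On day 3, TERT was lower at 25% and 12.5% than at 50% histidine, and lowest at 0%. It had 5.11, 0 and 1.04 normalized counts at 0%. It had 28.1, 36.7 and 11.6 at 12.5%, and 21.7, 0 and 54.6 at 25%. The 2 lower partial levels overlapped each other. The 12.5% libraries lay above all 3 at 0%, with means of 2.05 at 0% and 25.5 at 12.5%, a step given as a description since the 0% group chose the gene. The 25% libraries lay above 0% except for the one listed at 0. At 50% it had 294.7, 337.8 and 278.7, and at 100% it had 213.1 and 302.7, so these groups overlapped and no library at 25% or below came near them. In bulk RNA, fewer cells expressing TERT and less TERT RNA per cell cannot be told apart.

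**Figure D1:**
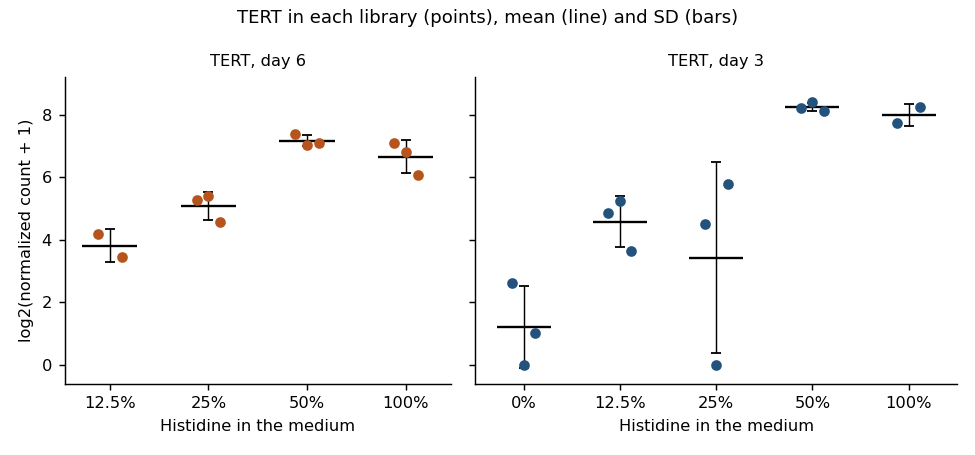
TERT in each library as log2(normalized count + 1) by histidine in the medium, with day 6 in the left panel and day 3 in the right; points are libraries, lines group means and bars SD. Day 3 libraries at 50% and 100% lie at 213.1 to 337.8 normalized counts, those at 12.5% and 25% at 0 to 54.6, and those at 0% at 5.11 or below.

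The tests of TERT compare no library at 0% or 100% on day 3, since those groups chose the gene. Those libraries still entered the estimate of spread that all 9 groups share, and so the SE and p-values of TERT. TERT averaged 25.4 ± 27.5 normalized counts at 25% and 303.7 ± 30.6 at 50% (SD, n = 3 each), 11.9 times higher at 50%. The log2 difference was -4.81 ± 0.99 (SE; limma across all genes, Benjamini-Hochberg adjusted p = 0.00129). All 3 libraries at 25% were below all 3 at 50%. The library listed at 0 stretched that difference: without replicate 2 at 25%, it was -3.10 (adjusted p = 0.000288). When the fit held the 25% and 50% groups alone, the call was lost (adjusted p = 0.113). At 12.5% TERT averaged 25.5 ± 12.8 (SD, n = 3), and its log2 difference from 50% was -3.66 ± 0.99 (SE, limma adjusted p = 0.00831), again with no overlap. At 12.5% against 25% the difference was 1.15 with a 95% interval of -0.93 to 3.23, not past the threshold (limma adjusted p = 0.574), with the means almost equal. Its sign rested on the library listed at 0: without that library it was -0.56 (adjusted p = 0.684).

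Against these 2 calls for TERT stood smaller and opposite ones in shelterin. At 25% against 50% on day 3, 2 of the 7 genes were called, TERT lower and TERF2 higher, where 23.8% of all genes tested were called. At 12.5% against 50%, 3 of 7 were called, TERT lower and TERF2 and TERF2IP higher, where 30.0% of all genes were called. The 6 shelterin genes had a median log2 difference of 0.10 at 12.5% against 50%, beside -0.02 for all genes tested. With 7 genes, 2 or 3 calls against these backgrounds are not read as a result about the set. Erythroid markers also differed between 25% and 50%: all 4 were present, with sums of 226 to 359 at 25% and 3527 to 5029 at 50%. On the same day these markers summed to 278 to 528 at 100% and to 191 to 3827 at 12.5%. B-cell markers summed to 542 to 656 at 25% and 193 to 244 at 50%. The part of this marker difference in the TERT result was not tested.

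Over the 9 groups, the group means of TERT spanned 7.03 on the log2 scale, wider than 99.99% of the tested genes, whose median span was 1.13. That span includes the groups that chose TERT and is a description. The shelterin genes spanned 0.29 (TERF1), 0.49 (TINF2), 0.53 (TERF2), 0.67 (TERF2IP and ACD) and 0.74 (POT1), all under the median gene. Pooled over the 9 groups, the spread between libraries of a group was also much wider for TERT. Its residual SD was 1.25 on the log2 scale, against 0.07 to 0.26 for shelterin. This width was not the same in every group. On day 3, TERT had 21.7, 0 and 54.6 normalized counts at 25%, and 5.11, 0 and 1.04 at 0%. At 50% its libraries lay closer together on the log2 scale. They had 294.7, 337.8 and 278.7 on day 3, and 166.6, 130.3 and 135.7 on day 6. Per kilobase of the longest coding transcript, TERT averaged 26.0 normalized counts at 100% on day 6 and 64.2 on day 3. On the same scale TERF2IP, the most abundant of the 7, averaged 1664 on day 6 and 1586 on day 3, and POT1, the lowest of shelterin, 66.98 on day 6 and 78.2 on day 3.

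On day 6 TERT again lay low at 12.5% and 25% and high at 50% and 100%. It had 17.3 and 9.86 normalized counts at 12.5%, and 37.4, 41.3 and 22.5 at 25%. It had 166.6, 130.3 and 135.7 at 50%, and 134.9, 111.9 and 66.4 at 100%. No library at 12.5% or 25% reached any library at 50% or 100%. Means were 13.6 ± 5.29 (SD, n = 2), 33.8 ± 9.92, 144.2 ± 19.6 and 104.4 ± 34.8 (SD, n = 3 each) from 12.5% to 100%.

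The pairwise tests of day 6 were mixed in their calls. TERT at 12.5% against 50% differed by -3.36 ± 1.104 on the log2 scale (SE, limma adjusted p = 0.0356). Against 100%, the difference was -2.84 ± 1.104, with a 95% interval of -5.17 to -0.51, and missed the threshold (adjusted p = 0.0791). At 25% it was -2.10 against 50% (adjusted p = 0.155) and -1.59 against 100% (adjusted p = 0.312). Without the library of heart muscle transcripts these were -2.26 (adjusted p = 0.206) and -1.75 (adjusted p = 0.367). When the fit held only the compared groups, limma called TERT at 25% against 50% (adjusted p = 0.000438) and against 100% (adjusted p = 0.00872). It also called TERT at 12.5% against 100% (adjusted p = 0.000401), so these calls depended on which groups were fitted together. The 12.5% against 50% call did not hold without any 1 of the 5 libraries of those groups, with adjusted p from 0.0662 to 0.213. Fibroblast and matrix markers, all 4 present, summed to 5551 to 9590 at 12.5% and 1583 to 2830 at 50%; their part in this result was not tested. They overlapped between 12.5% and 100%, where sums were 4435 to 10020 at 100%.

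No member was called between 50% and 100% on either day. At 12.5% against 25% on day 6, too, limma called 0 of the 7, 0 had an unadjusted p under 0.05, and 0.874% of all genes were called. On day 3 at 50% against 100%, 0 of the 6 shelterin genes were called and 0 had an unadjusted p under 0.05, in a limma comparison in which 0% of all genes were called and 1075 had an unadjusted p under 0.05. TERT was 0.25 higher at 50% on the log2 scale as a description. On day 6 at 50% against 100%, 0 of the 7 were called by limma, 2 had an unadjusted p under 0.05, and 0.00435% of all genes, a single gene, were called. For TERT on day 6 the difference was 0.51 with a 95% interval of -1.57 to 2.60, which does not show equal levels. ACD had the smallest p there, 0.33 higher at 50% (95% interval 0.15 to 0.51, adjusted p = 0.425).

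TERF2, whose protein TRF2 holds the protective t-loop at chromosome ends, was highest at the intermediate levels. On day 3 it had 1219, 1102 and 1210 normalized counts at 0%. It had 1651, 1740 and 1692 at 12.5%, and 1506, 1572 and 1468 at 25%. At 50% it had 1168, 1289 and 1143, and at 100% 1155 and 1289. All 6 libraries at 12.5% and 25% were above all 8 at the other levels. TERF2 was 0.34 ± 0.08 higher at 25% than at 50% (SE, limma adjusted p = 0.00181) and 0.50 ± 0.08 higher at 12.5% than at 50% (adjusted p = 1.35e-05). Complete removal did not continue this rise: TERF2 differed between 0% and 100% by -0.05, given as a description.

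The TERF2 pattern recurred on day 6. It had 1455 and 1559 at 12.5%, 1668, 1524 and 1439 at 25%, 1144, 1317 and 1202 at 50%, and 1104, 1284 and 1144 at 100%. Every library at 12.5% and 25% exceeded every library at 50% and 100%. Limma called TERF2 higher at 12.5% (0.36, adjusted p = 0.00326) and at 25% (0.39, adjusted p = 0.000514) than at 100%. At 25% against 50% the difference was 0.34 (adjusted p = 0.0022). Without replicate 2 at 12.5%, the difference at 12.5% lost its call (adjusted p = 0.0711). Without the library of heart muscle transcripts, TERF2 at 25% was 0.40 higher than at 100% (adjusted p = 0.0018) and 0.35 higher than at 50% (adjusted p = 0.00605).

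TERF2IP, whose product RAP1 binds TRF2, was higher at 12.5% than at 25%, 50% and 100% on day 3, and highest at 0%. On day 3 it had 5470, 5170 and 5394 at 0%. It had 4416, 4529 and 4505 at 12.5%, and 3826, 3603 and 3677 at 25%. At 50% it had 3468, 3316 and 3347, and at 100% 3360 in both libraries. The groups at 0%, 12.5% and 25% did not overlap one another or the 2 high levels. Limma called TERF2IP 0.41 ± 0.06 higher at 12.5% than at 50% (SE, adjusted p = 8.21e-06) and 0.28 ± 0.06 higher at 12.5% than at 25% (adjusted p = 0.00503). At 25% it missed the threshold against 50% (0.13, adjusted p = 0.132) and against 100% (0.14, adjusted p = 0.181). The difference of 12.5% from 25% was the only call among the 7 at 12.5% against 25%, where 8.22% of all genes were called, and it was lost under quantile normalization (adjusted p = 0.0799) and with library position as a term (adjusted p = 0.279).

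On day 6 TERF2IP had 4297 and 4725 at 12.5%, 4289, 4467 and 3673 at 25%, 3813, 3693 and 3666 at 50%, and 3447, 3766 and 3358 at 100%. The 12.5% libraries were above all at 50% and 100%, and those at 25% overlapped them through 1 library. At 12.5% against 100%, 2 of the 7 genes were called, TERF2 and TERF2IP (0.36, adjusted p = 0.000325), where 21.9% of all genes were called. At 25% against 100%, it was again these 2 (TERF2IP 0.23, adjusted p = 0.00769), where 20.2% of all genes were called. The TERF2IP call at 25% was lost without the library of heart muscle transcripts (0.17, adjusted p = 0.0637), without replicate 3 at 100% (adjusted p = 0.0523), with library position as a term (adjusted p = 0.114) and when the 2 groups were fitted alone (adjusted p = 0.0823).

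**Figure D2:**
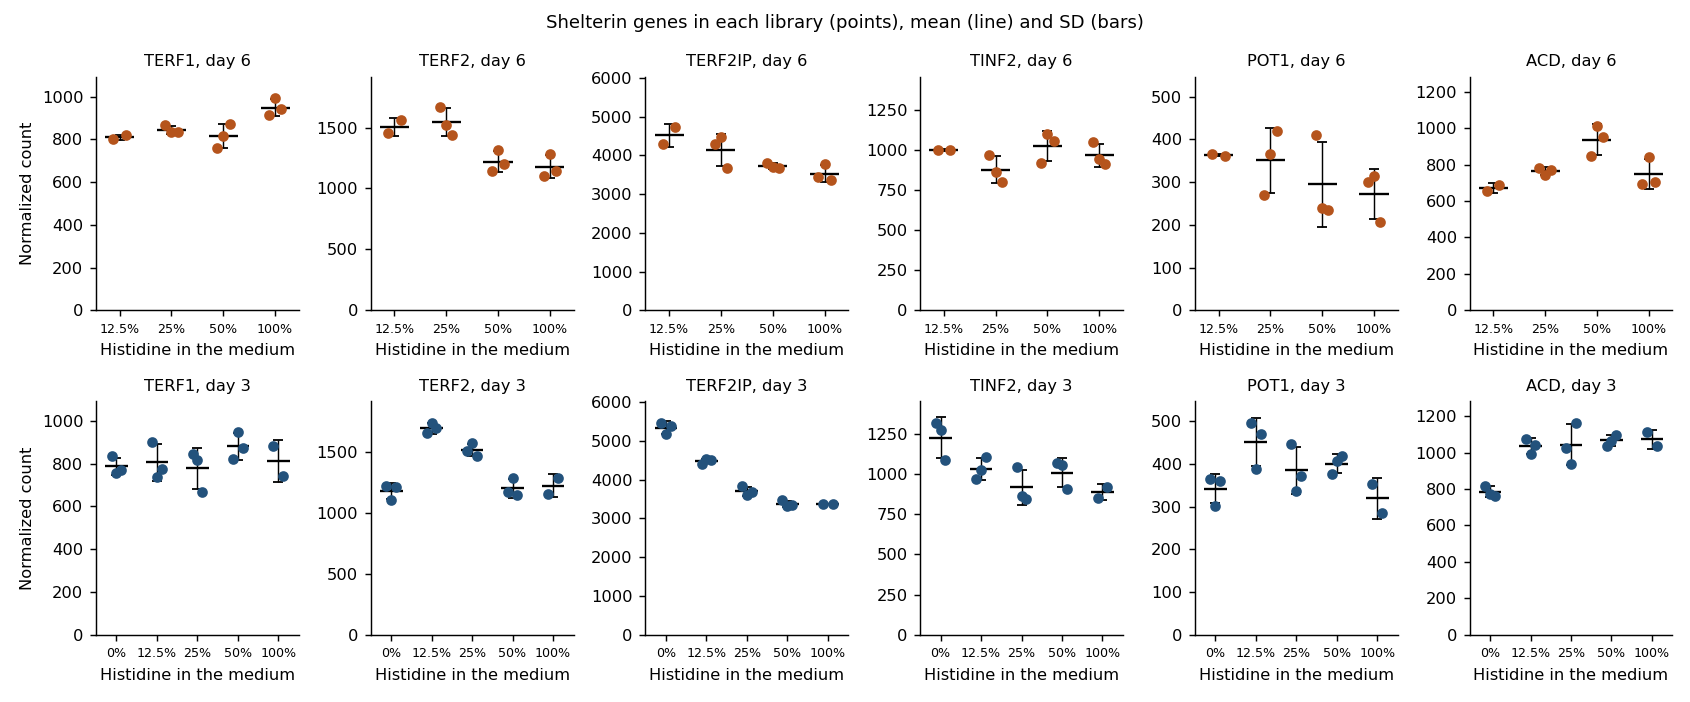
Normalized counts of the 6 shelterin genes in each library by histidine in the medium, on a linear axis from 0, with day 6 in the upper row and day 3 in the lower; points are libraries, lines group means and bars SD. TERF2IP on day 3 lies at 5170 to 5470 at 0% and at 3360 at 100%, while TERF2 on day 3 is highest at 12.5%, at 1651 to 1740.

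ACD, which encodes TPP1, the shelterin subunit that recruits telomerase, was the member called between the days. At 12.5% it had 653 and 691 on day 6, against 1076, 991 and 1040 on day 3. At 25% it had 781, 742 and 771 on day 6, against 1026, 939 and 1164 on day 3. At 100% it had 694, 841 and 704 on day 6, against 1111 and 1035 on day 3. At each of these levels every day 6 library was below every day 3 library. Limma called ACD lower on day 6 at 12.5% (-0.62 ± 0.10, SE, adjusted p = 0.000105), at 25% (-0.44 ± 0.09, adjusted p = 0.00115) and at 100% (-0.53 ± 0.10, adjusted p = 0.00081). Without the library of heart muscle transcripts the 25% value was -0.42 (adjusted p = 0.00633).

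In each of those 3 comparisons ACD was the only member called. It was 1 of 7 at 12.5%, where 13.8% of all genes were called, 1 of 7 at 25%, where 11.8% were called, and 1 of 6 at 100%, where 8.66% were called. At 50% ACD had 848, 1013 and 951 on day 6, against 1037, 1066 and 1099 on day 3, and was 0.19 lower on day 6 without passing the threshold (adjusted p = 0.156). No member was called there by limma, 3 had an unadjusted p under 0.05, and 16.0% of all genes were called. Each day was 1 collection point, so the day and any batch of harvest or library preparation cannot be told apart.

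Within day 6, ACD was lower at 12.5% than at 50% by limma (-0.48 ± 0.10, SE, adjusted p = 0.000636), one of 4 members called there with TERT, TERF2 and TERF2IP, where 22.6% of all genes were called. Without replicate 2 at 12.5%, ACD was the single call of the 4 left, with adjusted p = 0.148 for TERF2 and 0.126 for TERF2IP, and without replicate 1 at 50% TERF2 was at 0.0532. It was also lower at 25% than at 50% (-0.29, adjusted p = 0.0182), one of 2 members called with TERF2, where 20.9% were called. That second call was lost without the library of heart muscle transcripts (adjusted p = 0.0600), without replicate 2 at 50% (adjusted p = 0.106) and without replicate 3 at 50% (adjusted p = 0.0589). Fibroblast and matrix markers, all 4 present, summed to 5551 to 9590 at 12.5%, 4649 to 12094 at 25% and 1583 to 2830 at 50% on day 6; their part in the ACD results was not tested. At 100%, where ACD lay between 694 and 841, they summed to 4435 to 10020. Against 100% ACD was not called at either level, with differences of -0.15 (95% interval -0.35 to 0.06) at 12.5% and 0.04 (95% interval -0.14 to 0.22) at 25%. On day 3 its level was flat from 12.5% to 100%, with group means of 1036 to 1073, and 785 at 0%.

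The remaining 3 shelterin genes gave no call in any tested comparison. TERF1, whose product TRF1 limits telomere length, lies on the plus strand of chromosome 8 at 73008864 to 73048122. It had group means from 778 at 25% on day 3 to 949 at 100% on day 6. TINF2, the bridge of the complex, had group means from 876 at 25% on day 6 to 1228 at 0% on day 3. POT1, the single-strand binder, was the most variable, from 273 at 100% on day 6 to 451 at 12.5% on day 3, with single libraries from 206 to 496. At 12.5% against 100% on day 6 POT1 differed by 0.43 (95% interval -0.01 to 0.88, limma adjusted p = 0.172). It was called in 4 alternatives, at 12.5% against 100% on day 3 with those groups fitted alone (adjusted p = 0.0370) and, without replicate 1 at 50% on day 6, at 25% (0.0412) and 12.5% (0.0309) against 50% and for day 6 against day 3 at 50% (0.00722). TERF1 gained a call under total-sum scaling for day 6 against day 3 at 100% (0.0452).

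**Figure D3:**
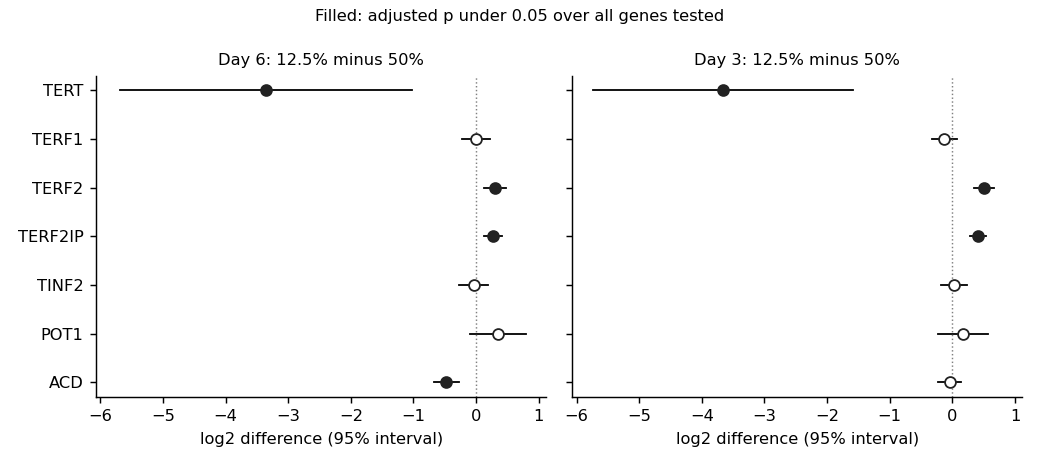
Log2 differences of the 7 genes with 95% intervals from limma, for 12.5% minus 50% on day 6 (left) and on day 3 (right); filled points passed the adjusted p of 0.05. TERT lies at -3.36 on day 6 and -3.66 on day 3, TERF2 and TERF2IP lie right of 0 and are filled in both panels, and ACD is filled on day 6 only.

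Removing histidine entirely is the comparison that chose TERT, with shelterin added by name, so the values at 0% against 100% on day 3 are a description. TERT differed by -6.78 on the log2 scale, TERF2IP by 0.67, TINF2 by 0.47, POT1 by 0.10, TERF1 by -0.04, TERF2 by -0.05 and ACD by -0.45. In this comparison 31.0% of all genes were called, and nothing is read from the members. From 12.5% to complete removal, where 21.0% of all genes were called, TERT differed by a further -3.37, TERF2 by -0.53, ACD by -0.40 and POT1 by -0.40, while TERF2IP and TINF2 differed by 0.25 each. Against 100% on day 3, limma called TERF2 alone at 25% (0.31, adjusted p = 0.0110; 1 of 6 members, where 19.5% of all genes were called). That call was lost without replicate 1 at 100% (adjusted p = 0.175). At 12.5% it called TERF2 (0.47, adjusted p = 0.000142) and TERF2IP (0.42, adjusted p = 3.7e-05), 2 of 6 members, where 26.2% were called.

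Whether the histidine difference changed with time was tested as an interaction. For 12.5% against 50%, the day 6 difference less the day 3 difference was called for ACD (-0.43 ± 0.13, SE, limma adjusted p = 0.0484), 1 of 7 members, where 6.33% of all genes were called. For TERT the same quantity was 0.31, with a 95% interval of -2.82 to 3.43, too wide to say that the 2 days were alike. For 12.5% against 100%, limma called 0 of the 6 shelterin genes, 0 had an unadjusted p under 0.05, and 3.64% of all genes were called. TERT on day 6 against day 3 differed by -0.77 at 12.5% (95% interval -3.09 to 1.56), by 1.64 at 25% (-0.44 to 3.72) and by -1.07 at 50% (-3.15 to 1.01), none past the threshold. Leaving out the library listed at 0 moved the 25% value to -0.08, and leaving out that of heart muscle transcripts to 1.48.

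The telomerase holoenzyme list, 14 genes that assemble, stabilise or carry the enzyme, moved in both directions at 12.5% against 100% on day 6. Limma called 5 higher and 3 lower, with a median log2 difference of -0.13 beside -0.0037 for all genes, while 10.8% of all genes were called higher and 11.1% lower. The count of higher genes was 3 without replicate 2 at 100% or replicate 1 at 12.5%, and 2 without replicate 2 at 12.5%. PARN, which trims the 3′ end of TERC, was 0.51 higher (adjusted p = 4.03e-06), with means of 1931 ± 167 (SD, n = 2) and 1352 ± 66.0 (n = 3). WRAP53, which delivers telomerase to Cajal bodies, was 0.51 higher (adjusted p = 0.00588), a call lost without replicate 2 at 12.5%. NHP2, a protein of the H/ACA particle that binds TERC, was 0.70 lower (-0.70, adjusted p = 3.77e-05), with means of 1073 ± 27.9 and 1743 ± 22.5. RUVBL1, an ATPase needed for telomerase assembly, had -0.27, a call lost without replicate 2 at 12.5% (adjusted p = 0.153), and DKC1, the dyskerin subunit that stabilises TERC, -0.26 (adjusted p = 0.0019). TERC itself was listed at 12.7 or below in every library, with a mean of 0.85 at 12.5% and 5.88 at 100%, and these libraries say little about it.

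The same list gave 4 higher and 4 lower at 12.5% against 50% on day 3, where 15.4% of all genes were called higher and 14.6% lower. There, PARN (0.45) and WRAP53 (0.44) were again higher and NHP2 (-0.57) lower. DKC1 differed by -0.04 there and was not called. Of the 3 genes of the CST complex, which binds the same single strand as POT1 and ends telomerase extension, limma called 0 in both comparisons and 0 had an unadjusted p under 0.05. At 12.5% against 100% on day 3, limma called 1 of the 3 higher and 0 lower, where 26.2% of all genes were called. Among 23 telomere accessory genes, 2 were higher and 0 lower at 12.5% against 100% on day 6, with 4 higher and 1 lower at an unadjusted p under 0.05, where 10.8% of all genes were called higher and 11.1% lower. The 2 called were PIF1 (0.96, adjusted p = 1.35e-05), a helicase that removes telomerase from DNA ends, and SLX4 (0.77, adjusted p = 3.34e-06), a nuclease scaffold that TRF2 brings to telomeres. On day 3, 6 of the 23 were called higher and 3 lower at 12.5% against 50%, where 15.4% of all genes were called higher and 14.6% lower. At 12.5% against 100% on day 3, 7 were called higher and 5 lower, where 26.2% of all genes were called.

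MYC, a factor known to activate TERT, was also low at 25% and below. On day 3 it had 3593, 3264 and 3155 normalized counts at 0%, 2187, 2059 and 2008 at 12.5%, and 3262, 2928 and 2795 at 25%. It had 10036, 9605 and 9903 at 50%, and 8845 and 10514 at 100%. Like TERT, MYC was high at 50% and 100% and low from 25% down. The lowest day 3 group of MYC was 12.5%. TERT was lowest at 0%, a group that chose it, so no contrast is drawn there. Limma put MYC at -1.72 for 25% against 50% on day 3 (adjusted p = 8e-16), a 3.29 times higher mean at 50%, where the mean of TERT was 11.9 times higher.

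On day 6 MYC had means of 2189, 3622, 6855 and 7069 from 12.5% to 100%, and differed by -1.69 at 12.5% against 100% (limma adjusted p = 2.65e-14). It was one of 4 lower and 1 higher among 22 genes of factors that act on the TERT promoter, where 11.1% of all genes were called lower and 10.8% higher. With any 1 library left out, 2 or 3 were lower and 1 or 2 higher. WT1, known as a repressor of TERT, had -1.21, a call lost on leaving out any library of those groups. RELA, a subunit of NF-kB, was the single one called higher (0.46, adjusted p = 1.83e-05). At 25% against 50% on day 3, 3 of the 22 were called higher and 8 lower, where 11.4% of all genes were called higher and 12.5% lower. Total-sum scaling called 6 higher, and without replicate 2 at 50% the lower count was 5.

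The proliferation genes MKI67, TOP2A and PCNA were low at 0%. At 25% and 12.5% against 50% or 100% they were called higher or not called, except for TOP2A, lower at 25% against 50% on day 3. At 12.5% against 100% on day 6, limma called all 3 higher: MKI67, a marker of cycling cells, by 0.98 (adjusted p = 1.01e-08), TOP2A, a DNA topoisomerase, by 0.42 (adjusted p = 8.39e-06), and PCNA, the replication clamp, by 0.31 (adjusted p = 0.00362, lost without replicate 1 at 12.5%), where 10.8% of all genes were called higher. At 12.5% against 50% on day 3, MKI67 was 0.63 higher (adjusted p = 8.92e-07) and PCNA 0.23 higher (adjusted p = 0.00977), while TOP2A was not called (0.12, adjusted p = 0.0888) and 15.4% of all genes were called higher. At 25% against 50% on day 3, TOP2A was at -0.23 (adjusted p = 0.00179), a call lost under total-sum scaling and quantile normalization. At 0% against 100% on day 3, by contrast, all 3 were called lower: MKI67 by limma at -1.53 (adjusted p = 1.14e-12), TOP2A at -1.77 (adjusted p = 1.21e-17) and PCNA at -0.94 (adjusted p = 2e-10), where 16.1% of all genes were called lower. MKI67 had means of 4237 at 0%, 17047 at 12.5%, 13094 at 25%, 11052 at 50% and 12198 at 100% on day 3. The part of proliferation in the TERT result was not tested. RNA levels of these genes are not a count of dividing cells.

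**Figure D4:**
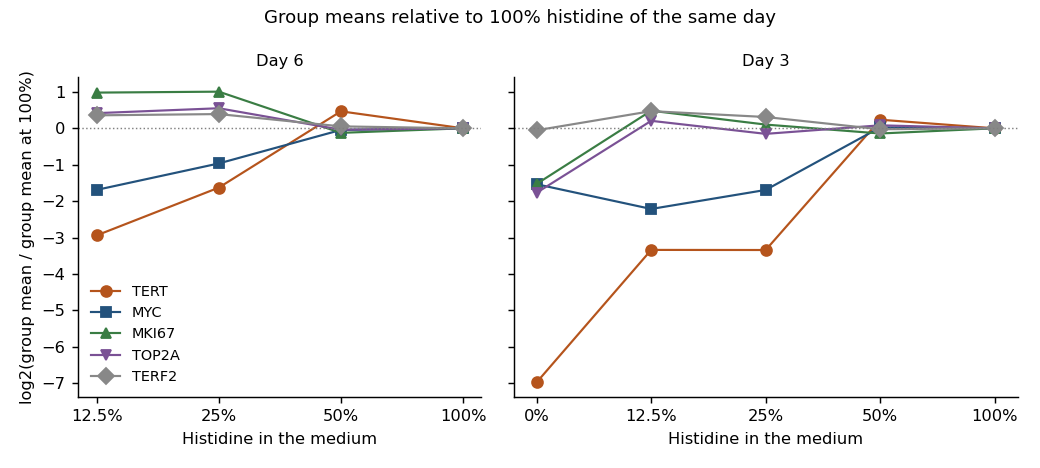
Group means of TERT, MYC, MKI67, TOP2A and TERF2 by histidine in the medium, as log2 of the ratio to the 100% mean of the same day, with day 6 left and day 3 right. TERT lies at -2.94 at 12.5% on day 6, where MYC is at -1.69; at 0% on day 3 TERT is at -6.97 and MYC, MKI67 and TOP2A at -1.54, -1.53 and -1.77.

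Genes that flank TERT on the short arm of chromosome 5 were examined from a list of 7. SLC6A19, SLC6A18 and SLC6A3, solute carriers, were not tested, since they stayed at or below 11.0 normalized counts. The other 4 were tested. At 25% against 50% on day 3, limma called all 4 lower, where 12.5% of all genes were called lower. NKD2, an inhibitor of Wnt signalling whose gene starts at -286.2 kb from the TERT start, toward the chromosome end, was at -0.75 (adjusted p = 4.59e-06). SLC12A7, a potassium-chloride cotransporter starting at -183 kb, was at -0.33 (adjusted p = 0.00268). On the other side, CLPTM1L at 50.0 kb, named for a cleft lip and palate gene, was at -0.50 (adjusted p = 2e-08), and LPCAT1 at 228.9 kb, a phospholipid acyltransferase, at -0.69 (adjusted p = 5.74e-07).

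On day 6, 3 of the 4 were called lower at 12.5% against 100%, where 11.1% of all genes were. NKD2 differed by -2.42 (adjusted p = 4.02e-14), SLC12A7 by -0.95 (adjusted p = 9.74e-09) and CLPTM1L by -0.52 (adjusted p = 7.78e-08), and LPCAT1 by -0.19 (adjusted p = 0.165). NKD2 had 171 and 188 normalized counts at 12.5% on day 6, against 939, 942 and 1003 at 100%. On day 3 its means were 128, 337, 606, 1016 and 1026 from 0% to 100%, so it had the high values of TERT at 50% and 100% but a graded fall below them. A list of 4 tested genes is small, and it was chosen with earlier results of these data known. Outside the list, TRIP13, an ATPase of the meiotic and spindle checkpoint starting at -402.4 kb, and LINC01511, a long noncoding RNA at 85 kb, were also tested, and are named after their values were seen. TRIP13 differed by -0.97 at 12.5% against 100% on day 6 (limma adjusted p = 2.55e-07) and by -1.65 at 25% against 50% on day 3 (adjusted p = 1.51e-12). LINC01511, at or below 21.0 normalized counts in every library, differed by -0.08 (adjusted p = 0.971) and -1.97 (adjusted p = 0.0832) in the same comparisons, and the second was called without replicate 3 at 25% (adjusted p = 0.0252).

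**Figure D5:**
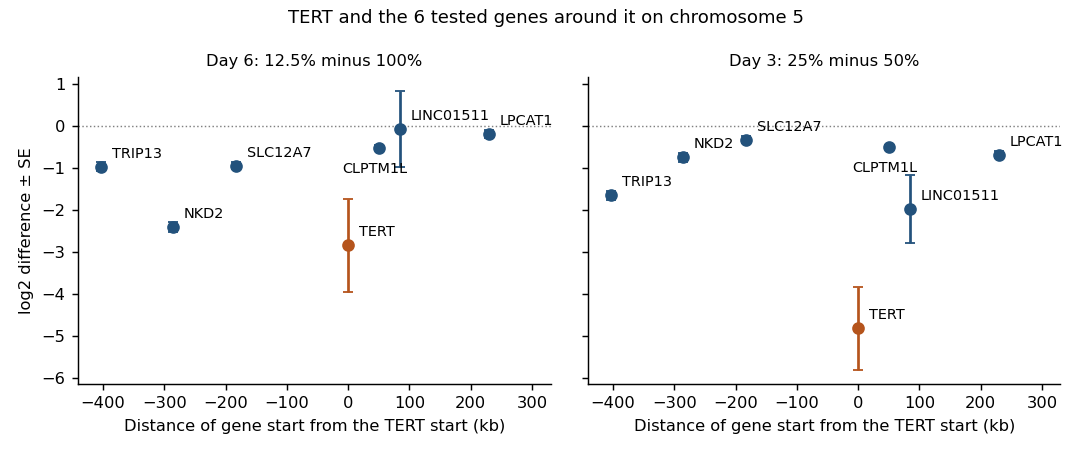
Log2 differences (± SE, limma) of TERT, the 4 tested genes of the list, TRIP13 and LINC01511 by distance of the gene start from the TERT start (kb, positive toward larger coordinates), for 12.5% minus 100% on day 6 (left) and 25% minus 50% on day 3 (right). All 6 other genes are below 0 in both panels; LPCAT1 (-0.19), LINC01511 (-0.08) and TERT (-2.84) did not pass the threshold on day 6, nor LINC01511 (-1.97) on day 3.

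Over the 9 group means on the log2 scale, the genes most like TERT among 14377 genes with a group mean of at least 50 were TTI2 (Pearson r = 0.98), VIM (0.98), CLSTN1 (0.97), RCCD1 (0.97) and MYADM (0.97). Those running most opposite were ITGA6 (-0.98), CDPF1P1 (-0.98) and DNAJC10 (-0.97). VIM, the intermediate filament vimentin, had means of 5006 at 0%, 7251 at 12.5%, 6807 at 25%, 12274 at 50% and 11536 at 100% on day 3. ITGA6, the laminin receptor subunit integrin alpha 6, had 6460 at 0%, 5289 at 12.5%, 5867 at 25%, 3407 at 50% and 3528 at 100%. Likeness rests on 9 points that share their libraries, and the top genes were picked from all of those compared.

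Likeness was also taken over 8 means, without the 0% group. The group that 0% was compared with when TERT was chosen stayed in. These 8 means are therefore not free of that choice, and their values are a description. The most like were IDH3B (0.98), PLOD1 (0.98), MYADM (0.98), XAB2 (0.98) and RPL32P29 (0.98). The most opposite were ITGA6 (-0.99), SFI1 (-0.98) and CEP76 (-0.98). MYADM and ITGA6 stood in both lists. MYC had r = 0.95 with TERT over these 8 means, and 0.82 over all 9. TERF2 had r = -0.86 and TERF2IP -0.76 over the 8 means, and MKI67 -0.68.

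The nearest match of each shelterin gene was picked from 14377 genes over 9 means, so a match outside the complex says little about shelterin. The closest pair within shelterin was TERF2IP and TINF2 (r = 0.67 over 9 means), then POT1 and TERF2 (0.66). The gene nearest TERF2 was SMG9 (0.99), a subunit of the nonsense-mediated decay kinase complex, with means of 1005 at 0%, 1680 at 12.5%, 1507 at 25%, 1090 at 50% and 1091 at 100% on day 3. The gene nearest TERF2IP was NMT1 (0.99), an N-myristoyltransferase, nearest POT1 was PCMT1 (0.98), nearest TINF2 SARAF (0.97), nearest ACD CSRP1 (0.95) and nearest TERF1 MEAK7 (0.91).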

How the data were processed

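RNA was extracted with column kits and sequenced from strand-specific libraries, per the labels' protocols. FastQC 0.11.9, kallisto 0.50.1, DESeq2 1.44.0 and GRCh38 are named in the submitters' processing notes; no annotation or strand setting is named there. What the authors deposited is a signal, namely normalized counts per gene. These are not raw reads: 45.5% to 75.6% of values up to 20 came out whole within 0.05, so no count test was run and the read depth is unknown. Values were taken as log2(value + 1) and tested in limma 3.58.1 (R 4.3.3) with 1 mean per group over all 25 libraries, trend and robust variance moderation. Genes needed at least 10 in at least 2 libraries, which left 22994. Benjamini-Hochberg adjusted p under 0.05 over all of them is a call. On this scale the change of low genes is usually understated, but a library at 0 can stretch it: TERT at 25% against 50% on day 3 was at -4.81, and the log2 ratio of the means at -3.58. The steps were tested on simulated data.

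The members and lists were chosen with earlier results of these data known. TERT has no test where day 3 libraries at 0% or 100% are compared, and shelterin none where 0% is compared. All groups share in the estimate of spread. Named besides members are, per list, the 2 largest called rises and falls at 12.5% against 100% on day 6, plus TERC, DKC1, MYC, flanking genes and 3 proliferation genes. Likeness names the 5 most and 3 least correlated genes. Alternatives were other pseudocounts, no filter, total-sum and quantile scaling, a replicate block, a library position term taken from the library numbers, only the compared groups, and each library left out. Gene positions are from GENCODE on GRCh38.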

Additional observations from a re-analysis of the deposited data

Results flagged for a closer look

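The response of ACD to 12.5% against 50% histidine differed between the 2 days in the test of that difference itself. Its log2 difference was -0.48 on day 6 and -0.04 on day 3, and the interaction was -0.43 ± 0.13 (SE, limma adjusted p = 0.0484). In that test 6.33% of all genes were called. With 100% in place of 50%, the ACD interaction was -0.10 and was not called (limma adjusted p = 0.822). Day 6 means of ACD were 672 at 12.5%, 764 at 25%, 938 at 50% and 747 at 100%, so the 50% group stood highest. Both libraries at 12.5% on day 6, at 653 and 691, were below all 3 at 50%, at 848, 1013 and 951. Fibroblast and matrix markers, all 4 present, summed to 5551 to 9590 at 12.5% and 1583 to 2830 at 50% on day 6, and to 1590 to 7437 at 12.5% and 3558 to 7467 at 50% on day 3; their part was not tested. The call is close to the threshold: it was lost without a filter on low values (adjusted p = 0.0945), under quantile normalization (adjusted p = 0.0895), with a replicate block (adjusted p = 0.0714) and when any of 9 of the 11 libraries was left out.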

How the results depend on the processing

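No called value reversed its sign under the alternatives run; some values that were not called did change sign. Of 2937 values and list counts under an alternative, 2808 kept their side of the threshold or stayed within 1.5 times, 68 lost a call, 31 gained one and 30 list counts moved. Counts of members called moved in 35 of 253 cases; causes were not tested. At 25% against 100% on day 3 the count of 1 became 2 under total-sum scaling and 0 with library position as a term, and 0 to 1 with a library left out. At 25% against 50% on day 3, 2 became 1 with only the compared groups fitted. At 12.5% against 25% on day 3, 1 became 0 under quantile normalization and with library position. On day 6, library position took 2 to 1 at 25% against 100% and at 25% against 50%. With a library left out, day 6 counts ran from 1 to 2 at 25% against 100% and at 12.5% against 100%, from 1 to 3 at 25% against 50% and from 1 to 3 at 12.5% against 50%, where 4 were called with all libraries. For day 6 against day 3, total-sum scaling gave 3 at 100%, where 1 was called; 1 at 50%, where 0 were, as did quantile normalization and only the compared groups; and 2 at 25%, where 1 was, as did quantile normalization. Left-out libraries gave 0 to 1 at 50% and 1 to 2 at 25%. The day difference of 12.5% against 50% had 1 call, and 0 with no filter, quantile normalization or the replicate block, and 0 to 1 with a library left out. TERT on day 6 gained calls with a pseudocount of 10 at 12.5% (adjusted p = 0.00157) and 25% (0.0293) against 100% and 25% against 50% (0.0037), and with only the compared groups fitted at 12.5% (0.000401) and 25% (0.00872) against 100%, 25% against 50% (0.000438) and day 6 against day 3 at 50% (0.000601). It gained one at 12.5% against 100% with library position (0.0487), and lost that at 12.5% against 50% with a pseudocount of 0.5 (0.0781), no filter (0.0630) and library position (0.150). Same-numbered libraries of a day showed little shared deviation (41 pairs, r from -0.05 to 0.19, 1 over 0.1). Of 25 libraries, 9 correlated best with their own number. No pairing by number was seen, but groups this small cannot show that same-numbered libraries shared no culture or preparation. The replicate block changed no other count of members. Total-sum scaling moved the median of all genes to 0.11 at 25% against 50% on day 3 and put 64.0% of calls higher, against 47.7% in the values as deposited; for day 6 against day 3 at 100% these were 0.14, 70.0% and 33.8%. TERT below about 10 normalized counts is at the filter's minimum, and groups of 2 limit precision.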
